A study of Mus musculus with 8 samples.

Results

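Many genes on the X chromosome have an intronless copy on an autosome that is active in the male germline, and 5 such pairs of autosomal retrogene and X-linked parent are described here. The pairs were *Pgk2* and *Pgk1*, *Pdha2* and *Pdha1*, *Cstf2t* and *Cstf2*, *Rpl10l* and *Rpl10*, and *Cetn1* and *Cetn2*. These 10 genes were taken by symbol from the 23343 genes of the RNA-seq tables, each was listed in 1 row, and all 10 were among the 14647 genes tested.

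A retrogene arises when a processed mRNA is copied back into the genome, so that the copy lacks the introns of its parent. In pachytene spermatocytes (PS), the cells of meiotic prophase in which the autosomes have synapsed, the X and Y are silenced together in the XY body, a process called meiotic sex chromosome inactivation. Round spermatids (RS) are the haploid cells that follow meiosis, in which most X-linked genes remain repressed and some become active. Autosomal copies of X-linked housekeeping genes are known for supplying their function in male germ cells during this time.

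RNA-seq was available for PS and RS of adult *Rnf8;Scml2* double knockout (dKO) mice on a C57BL/6 background, which lack the ubiquitin ligase RNF8 and the germline Polycomb protein SCML2, with 2 libraries per stage. ChIP-seq of H3K27ac, histone H3 acetylated at lysine 27 and a mark of active promoters and enhancers, was available for PS and RS of adult wild-type C57BL/6 mice, again with 2 samples per stage. Cells were purified from testes by sedimentation through BSA, and the dKO cells of a purification came from the testes of a single mouse. No wild-type RNA was analysed here, so the RNA comparison is between stages of the dKO, the ChIP-seq comparison is between stages of the wild-type, and any effect of genotype cannot be told apart from the difference between assays.

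The RNA-seq libraries held 9655405 to 12289694 reads on genes. Reads on the X were 0.208% to 0.267% of a PS library and 0.816% to 0.887% of an RS library. The summed RPKM of 7 pachytene markers was 1144 and 1130 in PS against 515 and 577 in RS. Among them *Ccna1* went the other way, with 76.7 and 108 in PS and 120 and 113 in RS, and *Sycp1* overlapped between stages. The summed RPKM of 8 round spermatid markers was 447 and 770 in PS against 13091 and 13918 in RS. Markers of Leydig cells, which lie between the tubules, were also higher in PS. Those of peritubular cells, which lie around the tubules, were not. *Acta2* had 1.71 and 1.16 RPKM in PS and 1.58 and 1.49 in RS, which overlapped. *Myh11* was higher in RS, with 0.638 and 0.382 in PS and 0.769 and 0.746 in RS. The sum over the 7 Leydig and peritubular genes was 729 and 547 RPKM in PS and 70.4 and 44.7 in RS. Most of this sum came from the Leydig gene *Insl3* in all 4 libraries. None of the 7 was at 0 in any library, and the part of Leydig and peritubular cells in the results below was not tested. Of 5 blood markers, *Hba-a1* and *Hbb-b1* were at 0 in all 4 libraries, whereas *Lyz2*, *Cd68* and *Ptprc* were higher in RS. The sum was 2.37 and 1.56 RPKM in PS and 34.1 and 28.8 in RS. Most of it came from *Lyz2*, with 1.99 and 1.02 RPKM in PS and 30.2 and 25.7 in RS. The part of blood cells in the results below was not tested either. Sertoli cell markers, 6 genes, summed to 5.72 and 2.36 RPKM in PS and 5.67 and 4.52 in RS, which overlapped. The sum of 5 spermatogonial markers was higher in RS, with 21.1 and 15.8 RPKM in PS and 30.9 and 26.0 in RS. The targeted genes still had reads, 50 to 110 per library for *Rnf8* and 40 to 98 for *Scml2*; the position of the deletions was not given in the sources used here, so these reads check nothing.

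In PS each retrogene had a higher RPKM than its parent. There the RPKM of the retrogenes, which scales reads by transcript length and library size, ran from 22.1 to 456, whereas that of the parents ran from 0.800 to 13.9. In all 4 libraries the retrogene had the higher RPKM in 4 of the 5 pairs, and the exception was *Cstf2t* in RS. This count depends on the *Rpl10l* pair, in which unique alignment bears on both levels: with reads divided by uniquely alignable windows in place of length, as described below, the ratio of *Rpl10l* to *Rpl10* was 0.977 and 1.29 in PS and 0.570 and 0.666 in RS. From PS to RS the retrogenes moved in different directions. *Pgk2* rose, *Pdha2* and *Cstf2t* fell, and *Rpl10l* and *Cetn1* stayed within 1.5-fold. Of the parents, *Cstf2* and *Cetn2* rose and *Pgk1*, *Pdha1* and *Rpl10* did not pass the test.

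A gene was called changed at an adjusted p under 0.05 in edgeR's quasi-likelihood test with Benjamini-Hochberg adjustment over all genes tested and a change of at least 1.5-fold. By this rule 1 of 5 retrogenes was higher in RS and 2 were lower, and of all genes tested 30.4% were higher and 27.6% were lower. Among the parents 2 of 5 were higher and 0 were lower, where 61.9% of the 470 X-linked genes tested were higher and 1.49% were lower. The median log2 fold change was -0.52 for the retrogenes and 0.32 for the parents, beside 0.01 for all genes tested, -0.04 for autosomal genes and 1.29 for X-linked genes. The 5 parents were not tested as a group against other X-linked genes. A change in bulk RNA between purified fractions does not separate fewer cells of a type from less RNA per cell.

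**Figure D1:**
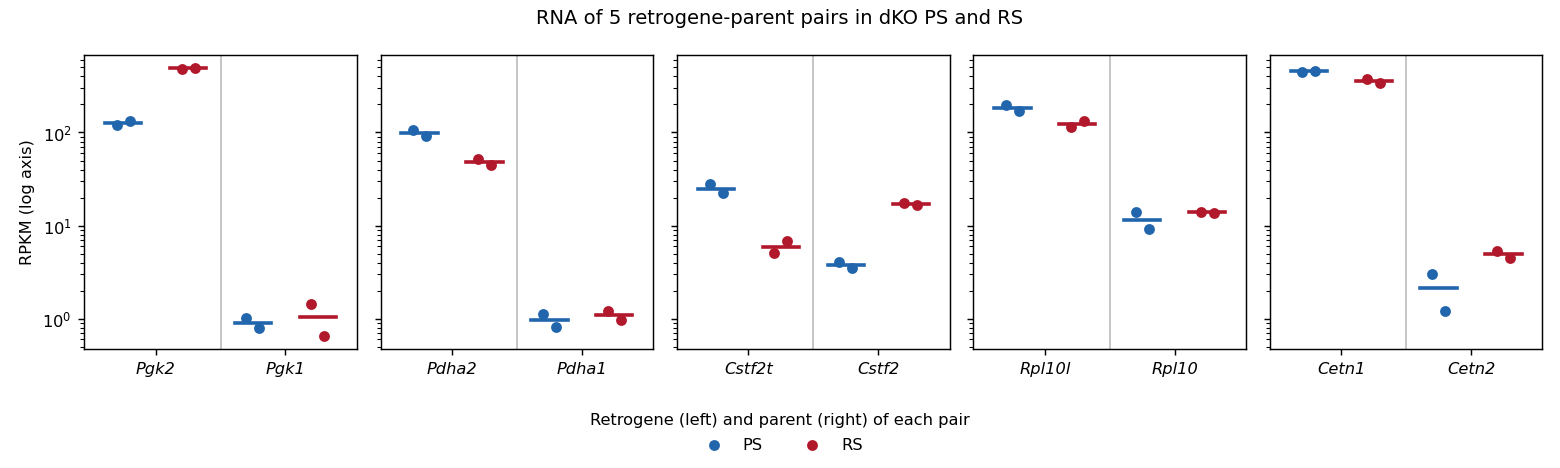
RPKM (log axis) of each retrogene and its X-linked parent in dKO PS (blue) and RS (red); points are libraries, 2 per stage, and lines are their means. *Pgk2* rises from 119 and 134 to 484 and 492, and *Cstf2t* and *Cstf2* exchange places.

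*Pgk2* and *Pgk1* encode phosphoglycerate kinase, which forms ATP in glycolysis, the pathway that powers much of sperm motility. *Pgk2*, a single exon on chromosome 17 (chr17:40207018-40208609, mm10, minus strand), had 119 and 134 RPKM in PS and 484 and 492 RPKM in RS. The stages did not overlap, and *Pgk2* rose 3.97-fold (log2 fold change 1.99, SE 0.125, edgeR adjusted p = 5.64e-06), from rank 632 and 536 of all genes in PS to rank 80 and 66 in RS. *Pgk1*, with 11 exons (chrX:106187124-106203699), had 1.02 and 0.800 RPKM in PS and 1.43 and 0.660 RPKM in RS, from 14 to 36 reads per library. Its stages overlapped, and its log2 fold change was 0.26 (SE 0.457, edgeR adjusted p = 0.638). The level of *Pgk1* is uncertain, because 92.9% of the 50-base windows of its transcript occur elsewhere in the genome and the authors kept unique alignments only; no window of *Pgk2* did.

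The 250 bases before the RefSeq start sites of this pair are shown because the copy and the parent carry different promoters: a copied mRNA does not bring its promoter along. They come from RefSeq on GRCm38.p6, the build of mm10, 5′ to 3′ on the strand of the gene, with each CpG in capitals, for *Pgk2* at chr17:40208610-40208859 (minus strand) and for *Pgk1* at chrX:106186850-106187099 (plus strand).
Pgk2: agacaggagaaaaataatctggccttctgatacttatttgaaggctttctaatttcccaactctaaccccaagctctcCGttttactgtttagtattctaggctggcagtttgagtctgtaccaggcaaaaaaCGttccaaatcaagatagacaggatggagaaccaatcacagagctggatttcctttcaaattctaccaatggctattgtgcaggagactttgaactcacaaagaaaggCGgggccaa
Pgk1: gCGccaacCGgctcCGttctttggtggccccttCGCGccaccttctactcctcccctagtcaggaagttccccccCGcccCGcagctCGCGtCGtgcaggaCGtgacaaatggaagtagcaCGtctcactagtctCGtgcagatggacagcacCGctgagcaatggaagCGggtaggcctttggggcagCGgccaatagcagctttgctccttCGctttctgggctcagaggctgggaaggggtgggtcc
The *Pgk2* window had 3 CpG and a GC content of 42%, whereas the *Pgk1* window had 17 CpG and a GC content of 62.8%. The median over 32851 RefSeq promoters of the mouse was 6 CpG and 52.4%.

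*Pdha2* and *Pdha1* encode the alpha subunit of the E1 enzyme of pyruvate dehydrogenase, which turns pyruvate into acetyl-CoA in mitochondria. *Pdha2* (chr3:141210004-141212355, minus strand, 1 exon) had 105 and 91.1 RPKM in PS and 52.1 and 44.8 RPKM in RS. Both RS libraries were below both PS libraries, and *Pdha2* was 1.97-fold lower in RS (log2 fold change -0.98, SE 0.136, edgeR adjusted p = 3.31e-04). *Pdha1* (chrX:160122219-160138336, minus strand, 11 exons) had 1.12 and 0.818 RPKM in PS and 1.21 and 0.976 RPKM in RS. These values, from 25 to 46 reads, overlapped between stages, and the log2 fold change was 0.20 (SE 0.332, edgeR adjusted p = 0.614). *Map3k15* overlaps *Pdha1* on the other strand with 12 to 48 reads, and since the library kit did not keep the strand, reads in the overlap cannot be assigned with certainty.

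*Cstf2t* and *Cstf2* encode forms of CstF-64, the subunit of the cleavage stimulation factor that binds nascent RNA downstream of the polyadenylation site. By RPKM, the more abundant member of this pair differed between stages. *Cstf2t* (chr19:31082841-31086592, plus strand, 1 exon) had 27.7 and 22.1 RPKM in PS and 5.03 and 6.77 RPKM in RS. It was 4.12-fold lower in RS, with no overlap (log2 fold change -2.04, SE 0.185, edgeR adjusted p = 2.95e-05). *Cstf2* (chrX:134059349-134086821, plus strand, 14 exons) had 4.05 and 3.52 RPKM in PS and 17.3 and 16.8 RPKM in RS. It was 4.65-fold higher in RS, again with no overlap (log2 fold change 2.22, SE 0.153, edgeR adjusted p = 7.86e-06), and 86.1% of the genes tested had a lower log2 fold change. *Cstf2t* lies within the gene *Prkg1*, which is on the other strand and had 0.250 and 0.402 RPKM in PS and 2.65 and 2.52 RPKM in RS.

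The windows before the start sites of this pair, chr19:31082591-31082840 for *Cstf2t* and chrX:134058926-134059175 for *Cstf2*, both on the plus strand and given as above, are shown because here the retrogene and the parent are alike in base composition.
Cstf2t: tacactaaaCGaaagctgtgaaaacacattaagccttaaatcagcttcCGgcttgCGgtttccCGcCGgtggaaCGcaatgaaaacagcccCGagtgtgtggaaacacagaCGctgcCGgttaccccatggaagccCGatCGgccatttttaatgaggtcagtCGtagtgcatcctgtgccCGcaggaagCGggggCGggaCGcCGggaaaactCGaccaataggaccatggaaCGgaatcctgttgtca
Cstf2: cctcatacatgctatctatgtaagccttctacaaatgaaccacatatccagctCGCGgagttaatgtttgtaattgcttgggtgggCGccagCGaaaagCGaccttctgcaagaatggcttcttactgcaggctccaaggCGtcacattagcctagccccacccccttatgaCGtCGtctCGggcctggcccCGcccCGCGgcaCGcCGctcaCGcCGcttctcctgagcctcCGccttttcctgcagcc
The *Cstf2t* window held 19 CpG, an observed to expected ratio of 1.03 that was above that of 95.5% of promoters, and the *Cstf2* window held 17 CpG, with a ratio of 0.862. The RefSeq start of *Cstf2* in this annotation lies upstream of the start in the deposited tables.

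*Rpl10l* and *Rpl10* encode a protein of the large ribosomal subunit that is loaded late in its assembly, and the RPL10L form is known for its need in the meiotic divisions. *Rpl10l* (chr12:66283379-66284401, minus strand, 1 exon) had 195 and 171 RPKM in PS and 115 and 132 RPKM in RS. The RS libraries were below the PS libraries, but the difference, 1.44-fold, was under 1.5-fold (log2 fold change -0.52, SE 0.129, edgeR adjusted p = 0.00714). *Rpl10* (chrX:74270816-74273135, plus strand, 7 exons) had 13.9 and 9.17 RPKM in PS and 14.1 and 13.8 RPKM in RS, which overlapped (log2 fold change 0.32, SE 0.241, edgeR adjusted p = 0.275). Of their 50-base windows, 94.8% in *Rpl10* and 26.3% in *Rpl10l* occur elsewhere in the genome, so that unique alignment can lower both levels, and most strongly that of the parent. *Snora70*, which lies within *Rpl10*, had 0 reads.

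*Cetn1* and *Cetn2* encode centrins, calcium-binding proteins of centrioles and of the base of cilia and flagella. *Cetn1* (chr18:9618419-9619469, minus strand, 1 exon) was the most abundant of the 10 genes in PS, with 451 and 456 RPKM, and had 376 and 337 RPKM in RS. The RS libraries were lower by 1.24-fold, under 1.5-fold (log2 fold change -0.31, SE 0.118, edgeR adjusted p = 0.0478). *Cetn2* (chrX:72913565-72918344, minus strand, 5 exons) had 3.03 and 1.21 RPKM in PS and 5.36 and 4.51 RPKM in RS. It rose 2.39-fold (log2 fold change 1.26, SE 0.394, edgeR adjusted p = 0.0211), from 16 and 41 reads to 63 and 89. This call was lost without RS replicate 1, with an edgeR adjusted p of 0.0892. The log2 fold change was 2.02 without PS replicate 1 and 0.80 without PS replicate 2, and the PS replicates differed more from each other than those of any other member by ratio.

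Ordered by RPKM in PS, the genes ran *Cetn1*, *Rpl10l*, *Pgk2*, *Pdha2*, *Cstf2t*, *Rpl10*, *Cstf2*, *Cetn2*, and then *Pdha1* and *Pgk1*, which overlapped with each other. In RS the order was *Pgk2*, *Cetn1*, *Rpl10l*, *Pdha2*, *Cstf2*, *Rpl10*, *Cstf2t* and *Cetn2*, again followed by *Pdha1* and *Pgk1*. In RS *Cstf2t* and *Cetn2* overlapped, as did the last pair, and all other neighbours in both orders were apart in their 2 libraries. The places of *Rpl10* and *Pgk1* are uncertain, because few of their windows align uniquely, and by unique windows *Rpl10* was close to *Rpl10l* in PS and above it in RS. The genes nearest to each retrogene in level over the 4 libraries, by Euclidean distance of log2(RPKM + 0.1), were *Spata6* and *Hmox2* for *Pgk2* (distances 0.305 and 0.450), *Uba2* and *Ddit3* for *Pdha2* (0.111 and 0.150), *Stom* and *Cenpc1* for *Cstf2t* (0.214 and 0.275), *St13* and *Npm1* for *Rpl10l* (0.132 and 0.238) and *Ddx25* and *Hsbp1* for *Cetn1* (0.0623 and 0.159).

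The question whether a retrogene gains or loses ground against its parent after meiosis was addressed by the ratio within each library. The ratio of *Pgk2* to *Pgk1* RPKM was 106 and 149 in PS and 317 and 648 in RS, and it was the only one of the 5 ratios to rise. That of *Pdha2* to *Pdha1* was 86.4 and 99.4 in PS and 39.8 and 41.7 in RS. The ratio of *Cstf2t* to *Cstf2* was 6.71 and 6.15 in PS and 0.294 and 0.407 in RS, so that the parent made up 12.7% and 13.7% of the summed RPKM of the pair in PS and 77.5% and 71.3% in RS.

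The sum of *Cstf2t* and *Cstf2* moved less than either, with 31.8 and 25.7 RPKM in PS and 22.4 and 23.5 RPKM in RS. The ratio of *Rpl10l* to *Rpl10* was 13.9 and 18.4 in PS and 8.12 and 9.50 in RS. The ratio of *Cetn1* to *Cetn2* was 144 and 347 in PS and 68.8 and 73.2 in RS.

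As log2 ratios, with 0.1 RPKM added, the differences between the stage means were 1.85 for *Pgk2*, -1.19 for *Pdha2*, -4.22 for *Cstf2t*, -0.87 for *Rpl10l* and -1.66 for *Cetn1*, each against its parent. For *Cetn1* the difference was -2.29 without PS replicate 1 and -1.02 without PS replicate 2. The stages did not overlap in any of the 5 pairs. Over the genes tested, the median log2 fold change was -0.04 for autosomal and 1.29 for X-linked genes. The share of falling ratios among other pairs of an autosomal and an X-linked gene was not measured. The two-sided exact permutation p was 0.333 for each, which is the smallest that 2 against 2 libraries allow. The change of the *Cstf2t* ratio corresponds to 18.6-fold.

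The size of a ratio, unlike its change between stages, depends on how much of each transcript can be aligned uniquely. Dividing reads by the number of 50-base windows found nowhere else (126 for *Pgk1* and 1543 for *Pgk2*) gave a *Pgk2* to *Pgk1* ratio of 8.21 and 11.7 in PS and 24.1 and 52.0 in RS. For *Rpl10l* against *Rpl10*, with 718 and 39 such windows, the ratio was 0.977 and 1.29 in PS and 0.570 and 0.666 in RS. By this measure *Rpl10l* was therefore not above its parent in RS, and the 39 windows of *Rpl10* leave that value poorly determined. The other 3 pairs had nearly all windows unique and ratios close to those by length, for example 96.1 and 113 in PS for *Pdha2* against *Pdha1*. No 50-base window was shared exactly within a pair, whose transcripts were 77.2% to 84.3% identical where they aligned. Whether reads of a retrogene were taken for those of its parent was not tested. Exact windows cannot show this, because the alignment allowed some mismatches and the read length is not given.

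**Figure D2:**
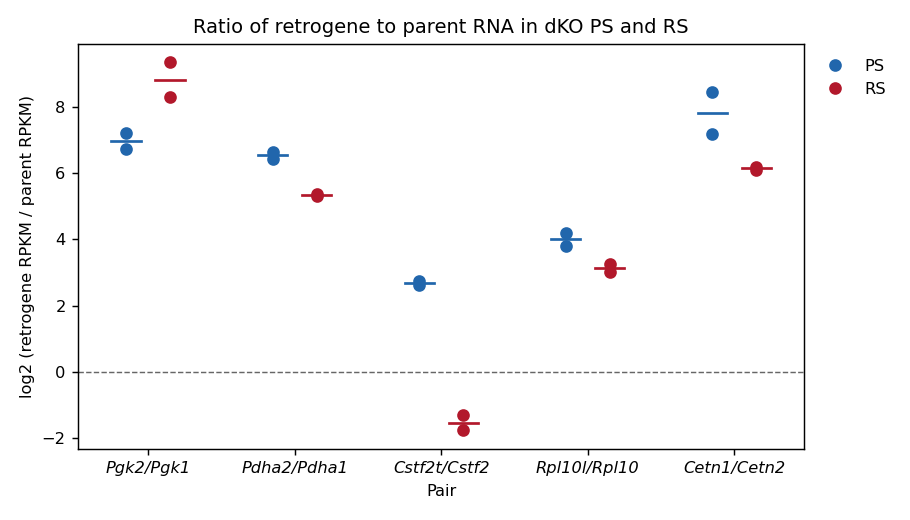
Log2 ratio of retrogene to parent RPKM (0.1 added to each) in dKO PS (blue) and RS (red), with a point per library and a line at the mean of 2; the dashed line marks equal RPKM. The ratio rises for *Pgk2*/*Pgk1*, falls for the other 4 pairs and crosses equality for *Cstf2t*/*Cstf2*.

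A list of 16 further autosomal retrogenes with X-linked parents was examined in the same way. In 12 of the 16 pairs the retrogene had the higher RPKM in all 4 libraries. The ratio fell without overlap from PS to RS in 10 pairs, rose in 2 and overlapped in 4. How often the ratio of any autosomal gene to an X-linked gene falls was not measured, so these counts have no background share. Of the 16 retrogenes 2 were called higher in RS and 6 lower, with a median log2 fold change of -0.33. The count of 6 was the same with DESeq2 but smaller without PS replicate 2 and without either RS replicate. Over all genes tested 30.4% were higher and 27.6% lower. Of the 13 parents with enough reads to test 5 were higher and 0 lower, with a median of 0.54. Among the X-linked genes tested 61.9% were higher and 1.49% lower, with a median of 1.29. The count of 5 was 3 with DESeq2 or without either RS replicate and 8 without PS replicate 1. The 3 parents not tested, *Gyk*, *Mcts1* and *Timm8a1*, had 7 reads or fewer in every library.

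*Ubl4b*, a ubiquitin-like gene, rose most in this list, from 8.86 and 13.3 RPKM in PS to 167 and 163 RPKM in RS (log2 fold change 3.93, edgeR adjusted p = 3.49e-06). *G6pd2*, a copy of the glucose-6-phosphate dehydrogenase gene, rose from 0.537 and 1.60 RPKM to 9.18 and 10.3 RPKM (log2 fold change 3.22, edgeR adjusted p = 1.56e-04). Its log2 fold change was 2.60 without PS replicate 1 and 4.25 without PS replicate 2. With *Pgk2*, these were all of the retrogenes called higher in either list.

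*Timm8a2*, which encodes a mitochondrial import chaperone, fell from 27.3 and 29.8 RPKM to 5.94 and 5.01 RPKM (log2 fold change -2.34, edgeR adjusted p = 2.62e-05). Besides *Cstf2t* and *Cstf2*, 3 pairs had both members called in opposite directions, always with the retrogene lower and the parent higher in RS. *Zfa*, the zinc finger copy listed in the tables as *Zfa-ps*, was 4.93-fold lower and *Zfx* 2.82-fold higher. *Tktl2*, a transketolase-like gene, was 2.19-fold lower and *Tktl1* 2.54-fold higher. *Nkapl*, known for its need in spermatogenesis, was 1.87-fold lower and *Nkap* 2.67-fold higher. *Nkap* had 8 to 34 reads per library, and its call was lost with DESeq2 (adjusted p = 0.0914) and without RS replicate 2 (edgeR adjusted p = 0.151). How much of these transcripts can be aligned uniquely was not measured for this list.

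**Figure D3:**
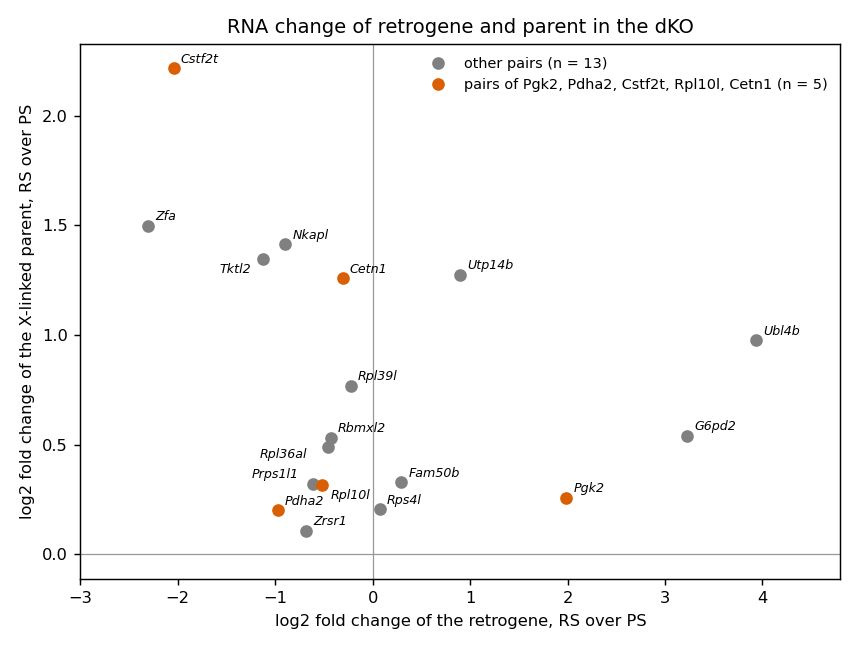
Log2 fold change from PS to RS in the dKO of the retrogene (x axis) and of its X-linked parent (y axis) for the 5 pairs (orange) and the 13 further pairs with both members tested (grey), labelled by retrogene. All parents lie above 0, between 0.11 and 2.22, whereas the retrogenes spread from -2.30 to 3.93.

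The proteins that work with the members were listed as 20 partner genes. Of these 2 were called higher in RS, 6 lower and 12 neither, with a median log2 fold change of -0.41. Over all genes tested 30.4% were higher and 27.6% lower, with a median of 0.01. Whether partners and members change together was not tested. In glycolysis, 1 of 6 genes was called. This was *Gapdhs*, the spermatogenic form of glyceraldehyde-3-phosphate dehydrogenase, which catalyses the step before phosphoglycerate kinase, and like *Pgk2* it rose, from 56.4 and 90.6 RPKM to 1029 and 1044 RPKM (log2 fold change 3.85, edgeR adjusted p = 4.71e-06). Its somatic counterpart *Gapdh* had 22.8 and 14.7 RPKM in PS and 15.7 and 17.0 RPKM in RS.

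Of 4 other pyruvate dehydrogenase genes 2 were lower and none was higher. *Dlat*, the E2 enzyme, had 56.0 and 45.3 RPKM in PS and 21.1 and 21.5 RPKM in RS (log2 fold change -1.21, edgeR adjusted p = 9.75e-05), and *Pdhb*, which encodes the E1 beta subunit that binds the *Pdha2* product, had a log2 fold change of -1.07, close to the -0.98 of *Pdha2* itself. *Dld* and *Pdhx* had log2 fold changes of -0.43 and -0.41, under 1.5-fold.

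In the cleavage stimulation factor, *Cstf3*, which encodes the subunit CstF-77, fell with *Cstf2t*, from 28.4 and 20.4 RPKM to 7.43 and 9.53 RPKM (log2 fold change -1.51, edgeR adjusted p = 2.19e-04), whereas *Cstf1* was not called, with a log2 fold change of 0.22. Of 6 genes for the late maturation of the large ribosomal subunit, in which RPL10 is loaded, 3 were lower and 1 higher. *Sbds* had 85.9 and 94.8 RPKM in PS and 39.4 and 31.3 RPKM in RS (log2 fold change -1.31, edgeR adjusted p = 1.56e-04). Its partner GTPase *Efl1*, listed as *Eftud1*, had 10.7 and 9.42 RPKM in PS and 18.5 and 16.5 RPKM in RS (log2 fold change 0.84, edgeR adjusted p = 0.00126). The other centrin genes, *Cetn3* and *Cetn4*, were not called, with log2 fold changes of -0.42 and 0.01.

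H3K27ac was compared by the highest fold enrichment over background, as deposited by the authors, among the intervals within 2 kb of each start site. All 5 retrogenes and 4 of the 5 parents had an interval in all 4 samples. Counted for each stage apart, 55.5% of all genes had an interval in both PS samples and 50.8% in both RS samples. For X-linked genes these shares were 51.6% and 37.5%. The share of genes with an interval in all 4 samples was not measured. In PS the retrogenes had fold enrichments of 11.1 to 32.9 and the parents of 6.17 to 20.8. Both RS samples were above both PS samples for 1 retrogene, *Pdha2*, and below for 3, *Pgk2*, *Rpl10l* and *Cetn1*. Of the 14736 genes with an interval, 13.6% were higher in both RS samples and 54% were lower, and the median log2 difference was -0.42, so a lower value in RS was the usual outcome. Among the parents 1 was higher, *Cstf2*, and 2 were lower, *Pdha1* and *Cetn2*, beside 11.7% and 55.8% of the X-linked genes with an interval.

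With 2 samples against 2 the two-sided exact permutation p of each of these differences is 0.333, the smallest possible. To allow for the general decrease, each value was also ranked among the genes with an interval in the same sample. By these percentiles *Cetn1* was the only retrogene lower in both RS samples and *Pdha2* the only retrogene higher. *Pgk2* and *Rpl10l* overlapped between stages. Among the parents *Pdha1* and *Cetn2* were lower by percentile and *Cstf2* was higher. How many of all genes were apart by percentile was not measured, so these counts have no background share.

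**Figure D4:**
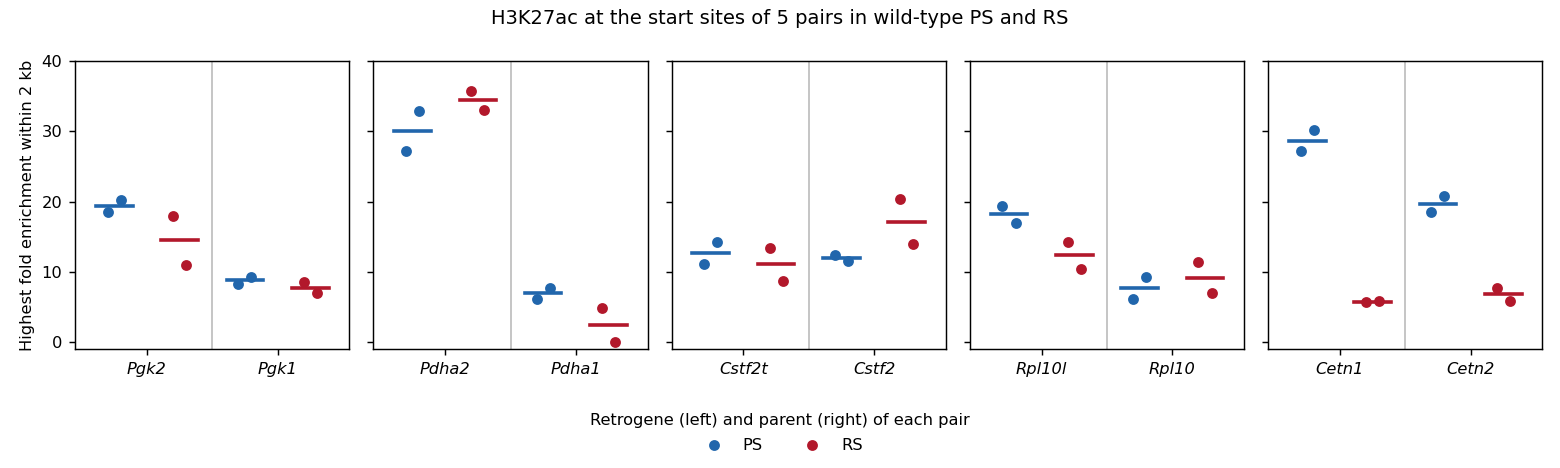
Highest H3K27ac fold enrichment within 2 kb of the start site of each retrogene and parent in wild-type PS (blue) and RS (red); points are samples, 2 per stage, lines are their means, and a value of 0 stands for no interval. *Cetn1* and *Cetn2* are lower in RS, while *Pdha2* and *Cstf2* are higher.

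The *Cetn* pair had the largest change of H3K27ac among the 5 pairs. At *Cetn1* the fold enrichment reached 27.2 and 30.1 in PS but 5.70 and 5.81 in RS (log2 difference -2.13). In PS an interval of 1927 and 1858 bases covered its start site, whereas in RS the intervals within 2 kb covered 1364 and 377 bases, and in RS replicate 2 none of them reached the start site. The RNA of *Cetn1* in the dKO differed by only 1.24-fold between the stages.

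*Cetn2* had 18.5 and 20.8 in PS and 7.73 and 5.81 in RS of the wild-type (log2 difference -1.42), while its RNA in the dKO rose. Its promoter region is shared with the neighbouring gene *Nsdhl*, so this H3K27ac cannot be assigned to *Cetn2* alone.

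*Pdha2* had the highest fold enrichment of the 10 genes in 3 of the 4 samples and in PS replicate 1 shared the highest value with *Cetn1*, with 27.2 and 32.9 in PS and 35.8 and 33.1 in RS. Among genes with an interval, their percentiles were 84.6 and 90.2 in PS and 98.0 and 98.8 in RS. The intervals covered more of the region within 2 kb in RS, with 3754 and 3300 bases against 2562 and 2594 in PS. The RNA of *Pdha2* was 1.97-fold lower in RS of the dKO. *Pdha1* had low values of 6.17 and 7.67 in PS and 4.88 in RS replicate 1, and no interval in RS replicate 2.

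*Pgk2* had fold enrichments of 18.5 and 20.3 in PS and 17.9 and 11.0 in RS, and *Pgk1* had 8.23 and 9.32 in PS and 8.54 and 6.97 in RS. The window printed above for *Pgk2* lay wholly within the main interval in both PS samples and in RS replicate 1, and in RS replicate 2 that interval ended inside the window, at position 40208670. The start site of *Pgk1* was covered in PS replicate 1 and RS replicate 1 only. The H3K27ac of *Pgk2* was thus not higher in RS of the wild-type, where its RNA in the dKO was 3.97-fold higher.

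*Cstf2* had 12.3 and 11.5 in PS and 20.3 and 13.9 in RS of the wild-type (log2 difference 0.47). Its RNA in the dKO was also higher in RS. *Cstf2t* had 11.1 and 14.3 in PS and 13.4 and 8.71 in RS, which overlapped, while its RNA in the dKO was 4.12-fold lower in RS. An interval covered the start sites of both genes, and the whole of both printed windows, in all 4 samples. *Cstf2t* was above *Cstf2* in 1 of the 4 samples.

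*Rpl10l* had 19.3 and 17.0 in PS and 14.2 and 10.4 in RS, and *Rpl10* had 6.17 and 9.32 in PS and 11.4 and 6.97 in RS. For this pair and for the *Pgk* and *Pdha* pairs the retrogene had the higher fold enrichment in 4 of 4 samples, and for the *Cetn* pair it did so in 2 of 4, the PS samples. X-linked genes had lower values in general, with a median over genes with an interval of 8.23 and 8.77 in PS and 6.92 and 6.39 in RS, against 15.2 and 16.4 and 13.0 and 11.0 over all genes.

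**Figure D5:**
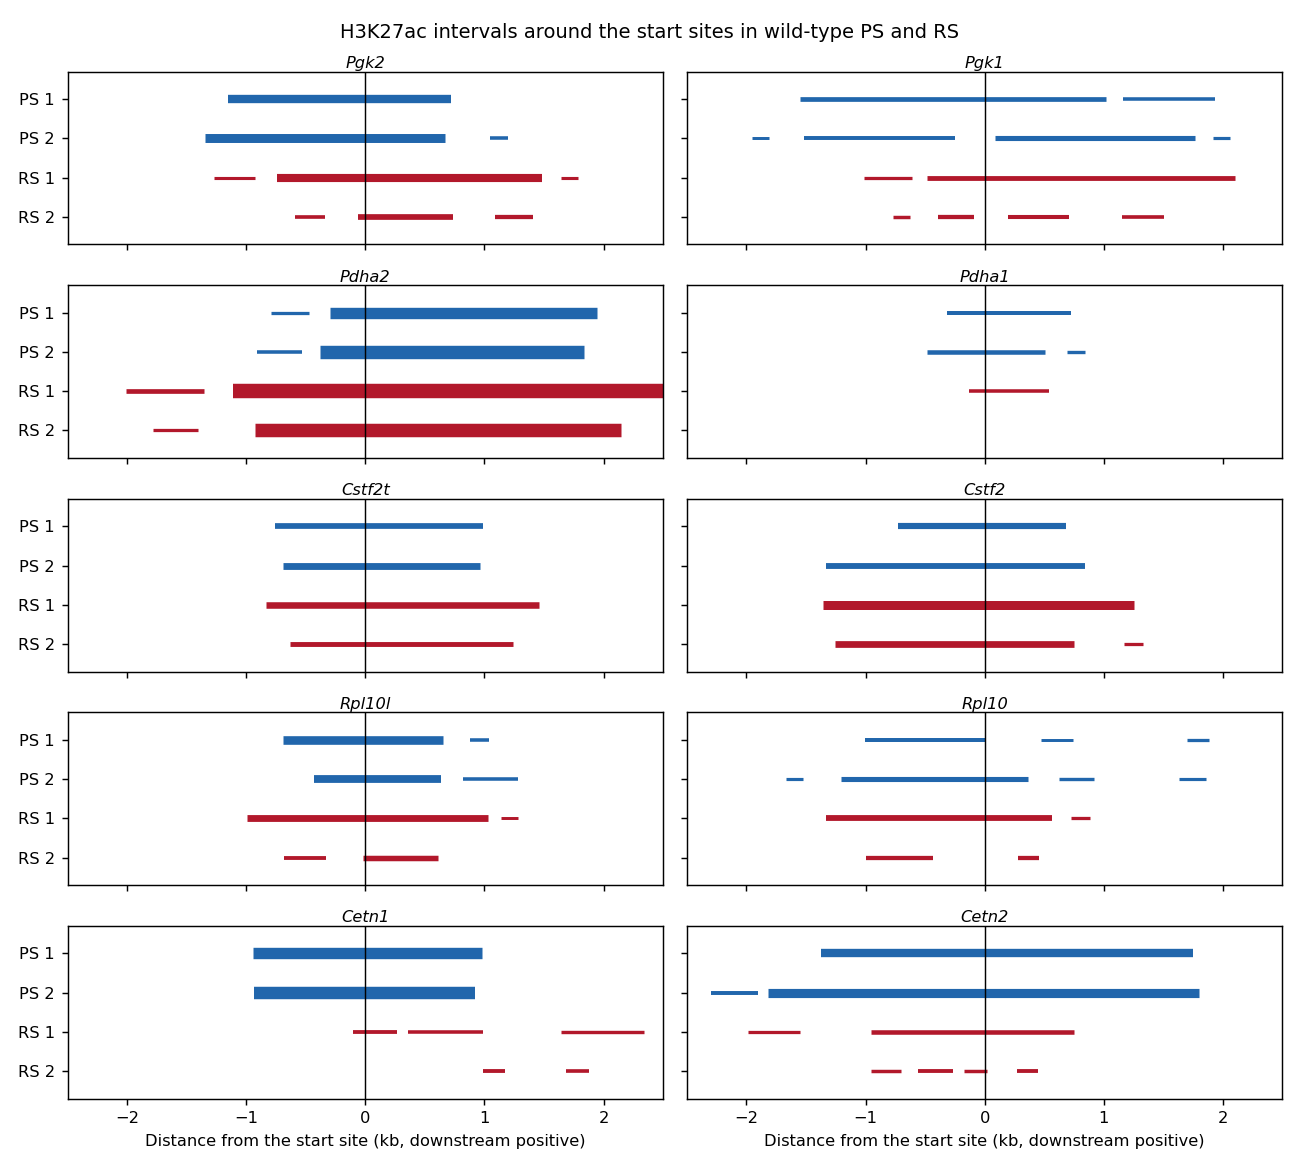
Deposited H3K27ac intervals around the start site (vertical line) of each retrogene (left column) and its parent (right column) in wild-type PS (blue) and RS (red), by distance in kb with downstream positive; each row is a sample, line width is proportional to the highest fold enrichment of the interval above a fixed minimum, and intervals are cut at the edges of the panel. The *Cetn1* intervals shrink from PS to RS, those of *Pdha2* widen, and *Pdha1* has none in RS replicate 2.

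The promoters were compared by sequence for the 9 members in the RefSeq promoter table (*Cetn1* has no entry). The 4 X-linked parents other than *Rpl10* had a GC content of 57.6% to 62.8% and *Rpl10* had 52.8%, with 13 to 17 CpG for all 5. Among the retrogenes *Pdha2* had the lowest GC content, 31.6% with 4 CpG, followed by *Pgk2*, and *Rpl10l* had 48% with 8 CpG. *Cstf2t* alone of the 4 retrogenes had more CpG than its parent. Short motifs were searched on both strands of the 250 bases. CCAAT was found in 5 of 9 (*Pgk2*, *Pgk1*, *Cstf2t*, *Rpl10* and *Cetn2*), where 33.8% of all promoters hold it, and GGGCGG in 6 of 9 (*Pgk1*, *Cstf2t*, *Cstf2*, *Rpl10l*, *Rpl10* and *Cetn2*), where 32.7% do. TATAAA was found in *Pdha2* only (12.4% of all promoters), as was AACNGTT (3.80%). TGACGT was found in *Cstf2* only (6.47%) and GTTGCC in *Cetn2* only (10.4%). None of these motifs contains another, and a match of these letters is not evidence of binding.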

How the data were processed

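The members, the further retrogene pairs, the partner genes and the marker lists were chosen with earlier results of these data known. Groups followed the sample labels. For RNA-seq, the authors amplified cDNA with the NuGEN Ovation v2 kit and built libraries with Nextera XT, without strand. They aligned reads to mm10 with STAR (2.4.2a), discarded reads aligning to several places, limited mismatches, and divided reads among RefSeq isoforms by expectation-maximization. The authors deposited read counts per isoform, unnormalized, and RPKM, scaled for transcript length and library size. Read length is not given in the sources used here.

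For ChIP-seq, the authors used ChIPmentation, Bowtie and MACS2 (1.1.1 and 2.1.0.20140616 in the submitters' processing notes) in each sample. The deposited lists hold the pileup signal, the fold enrichment (a ratio to background), and the -log10 p and -log10 q of each interval. ChIP read totals are not given, so their depth is unknown.

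Here, isoforms were summed to genes, and genes reaching 10 counts in 2 or more libraries were tested with edgeR 4.0.16 (quasi-likelihood, TMM), adjusted over all genes. Named genes beyond the members were, for each list and direction, the 3 called genes with the largest change, pairs called in opposite directions, and the 2 genes nearest in level to each retrogene; *Gapdh*, *Pdhb*, *Dld*, *Pdhx*, *Cstf1*, *Cetn3* and *Cetn4* were added after their values were seen. Transcript windows of 50 bases were searched in GRCm38; this length, and the unique-window ratio, were chosen after seeing the data. Alternatives were DESeq2 1.42.0, other normalization, no filter, the replicate block, pseudocounts, other windows and leaving out each library. On simulated data of 14304 genes, in which only well-covered genes were changed, edgeR recovered 68 of 100 genes changed 2-fold and 100 of 100 changed 3-fold between RS and PS, with 3 false calls. With 2 samples per group, p-values measure only the spread between these samples. R 4.3.3 and Python 3.11.15 were used.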

Additional observations from a re-analysis of the deposited data

How the results depend on the processing

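All 10 members kept their direction under DESeq2, RLE normalization, no filter and the replicate block, and their calls likewise. Without the fold threshold 4 retrogenes in place of 2 were lower in RS, since *Rpl10l* and *Cetn1* were added. By that rule 4696 of all 14647 genes tested were lower in RS and 4754 were higher. Leaving out each library gave 1 to 2 parents higher, and *Pgk1* went to a log2 fold change of -0.33 without RS replicate 1 and 0.79 without RS replicate 2. Of the other parents 3 were higher with DESeq2 in place of 5, and 3 to 8 when each library was left out (8 without PS replicate 1, 3 without either RS replicate). The 5 ratios kept their direction in every alternative. With unique windows in place of length, the log2 ratio of *Rpl10l* to *Rpl10* in RS was -0.70 in place of 3.14. For H3K27ac, 1 retrogene was lower by percentile in place of 3, and leaving out each sample gave 3 to 4 retrogenes lower, 2 to 3 parents lower and 1 to 2 parents higher (2 without PS replicate 2 or RS replicate 2).

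The labels number the replicates 1 and 2 in both stages, but nothing used here says that equal numbers mark the same mouse. The differences between replicates 1 and 2 in PS and in RS correlated across 14647 genes (r = 0.220), which are not independent. With the replicate block 1 retrogene was higher and 2 were lower and 2 parents were higher, as without it, and over all genes 4589 were higher and 4134 lower against 4448 and 4049. Few reads limit the precision for *Pgk1*, *Pdha1* and *Cetn2*.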
